A study of Mus musculus with 2 samples.

Results

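XY and XX germ cells were compared after the gonads that held them, taken from mouse embryos at E12.5, had been kept for 72 h in organ culture with DMSO, the solvent of the inhibitors used in the study. The comparison used 8 of the 40 libraries of the series, chosen by their labels alone. They were 4 libraries of XY germ cells, replicates 2, 4, 5 and 6 (XY E12.5 + 72 h DMSO), and 4 libraries of XX germ cells, replicates 4, 7, 8 and 11 (XX E12.5 + 72 h DMSO). The rest of the series held germ cells of both sexes at 0 h and after 24 h, and XY germ cells cultured with an inhibitor of FGF receptors or of MEK. Both groups were wild type and came from the same cross, of ASMU Swiss with mice that carry an Oct4(Pou5f1)-eGFP reporter on the 129svJT2 background. In this reporter, eGFP is driven by regulatory sequence of Pou5f1, a gene active in early germ cells. The sex of each embryo was read from whether testis cords had formed. Gonads were cultured with the mesonephros attached, the mesonephros was removed afterwards, the gonads of several embryos were pooled for each sample, and live eGFP-positive cells were sorted. The sorted cells were therefore those in which the reporter could still be detected, and each library averages over several embryos. The p-values measure the spread between such pooled samples.

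Germ cells arrive in the gonad with the same potential in both sexes. In a foetal ovary they leave the mitotic cycle through premeiotic S phase, switch on STRA8 and MEIOSIN and enter prophase of the first meiotic division, where homologous chromosomes pair along the synaptonemal complex and recombine. In a foetal testis they are kept out of meiosis, arrest in G1 and G0, switch on NANOS2, and then build the piRNA pathway and the de novo DNA methylation machinery that silence transposons and lay down the paternal epigenome. The question addressed was how far germ cells of the 2 sexes, one bound for meiosis and the other for mitotic arrest, had diverged after culture.

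Total UMI counts ran from 1462982 to 2309884 over the 8 libraries. Values are given as CPM, UMI counts scaled to the size of each library by TMM, in the order of replicates 2, 4, 5 and 6 for XY and 4, 7, 8 and 11 for XX, and counts for each gene were not divided by transcript length. Log2 fold changes are XY minus XX, and a gene was called a DEG when its FDR, the Benjamini-Hochberg adjusted p of limma treat against a 1.5-fold change, was under 0.05. Correlations of log2 CPM between libraries were between 0.954 and 0.968 within XY, 0.957 and 0.968 within XX, and 0.759 and 0.782 between the sexes. XX replicate 7 stood somewhat apart. The chi-square of its counts against those of each other XX library was 3.63 to 5.21 per degree of freedom, and 2.18 to 2.64 for all other pairs within a sex. The fit also gave it the lowest weight of the 8 libraries (0.622). The sex labels were borne out by 4 Y-linked genes, which together held 197 to 360 counts in each XY library and 5 to 9 in each XX library. Of 7 germ cell markers, 3 were higher in XY and 0 lower, and a wider list of 10 added 3 lower genes, Tex101 (-2.201), Sycp3 (-1.94) and Nr6a1 (-1.38 on the log2 scale). Ddx4 had 530.3 ± 33.8 v 380.4 ± 21.9 CPM (XY v XX, SD, n = 4) and Dazl 897 ± 41.8 v 1414 ± 107 CPM, without a call. The sets of marker genes for somatic and blood cells together took 0.0332 to 0.0446% of counts in XY and 0.0224 to 0.0315% in XX libraries. The groups did not overlap (exact two-sided permutation test, p = 0.0286, the smallest that 4 against 4 allow, adjusted p = 0.0571 over 4 such shares). Within this sum, endothelial markers took 0.00424 to 0.00494% in XY and 0.000293 to 0.000561% in XX, blood and immune markers 0.00497 to 0.00964% and 0.00219 to 0.00311%, and Leydig and stromal markers, the largest class, 0.0145 to 0.0290% and 0.0120 to 0.0204%. The Leydig and stromal, Sertoli and pregranulosa markers overlapped between the sexes. Amh, which defines Sertoli cells at this stage, had 1 count over the 4 XY libraries and 0 over the 4 XX libraries. In such bulk samples, fewer cells of a type and less RNA per cell cannot be told apart.

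At 72 h the transcriptomes of the sexes had separated widely. Of 15252 genes tested, 41.0% were DEGs, with 22.8% (3482 genes) higher and 18.1% (2768 genes) lower in XY than XX germ cells. These percentages are the background against which each gene list is read below, together with a median log2 fold change over all genes tested of 0.10. The 4 XY and the 4 XX libraries did not overlap for 58.5% of all genes tested. Among the genes called higher, 96.3% had no overlap, the median log2 fold change was 2.13 and 1921 genes differed by more than 4-fold. Among the genes called lower, 98.2% had no overlap, the median size was 1.68 on the log2 scale and 945 differed by more than 4-fold. The tail was longer towards XY, with 298 higher genes beyond 16-fold against 106 lower genes. Of the higher genes, 108 had no count in any XX library, and of the lower genes 6 had none in any XY library. By biotype, 24.9% of the 12419 protein-coding genes tested were higher and 18.6% lower, whereas of the 681 lncRNA genes 21.0% were higher and 27.2% lower in XY. Libraries thinned to the smallest total held 20884 to 22221 detected genes in XY and 19358 to 19900 in XX, a difference of 2040 genes (exact two-sided permutation test, p = 0.0286, adjusted p = 0.0571).

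**Figure D1:**
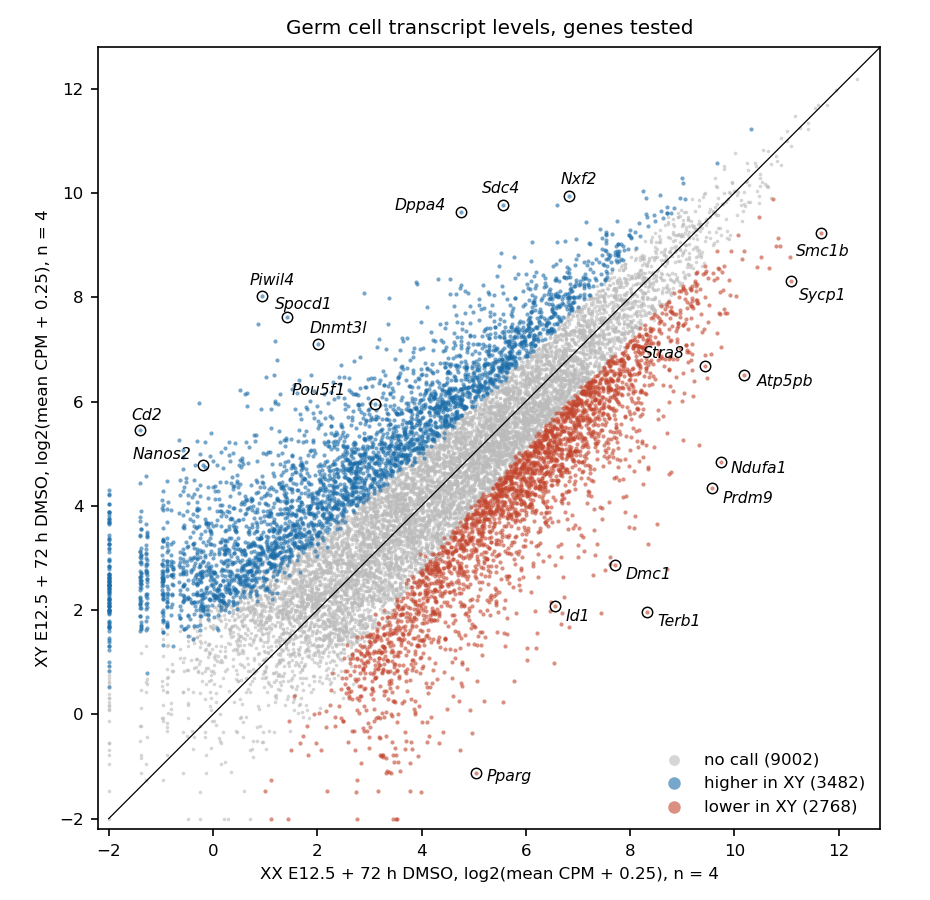
Mean level of each of the 15252 genes tested in XX (horizontal) and XY (vertical) E12.5 + 72 h DMSO germ cells, as log2 of the mean CPM of 4 libraries plus 0.25. Blue points are the 3482 genes called higher and red points the 2768 called lower in XY, grey points had no call, the line marks equal levels, and the circled genes run from Piwil4 far above the line to Terb1 and Pparg far below it.

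Several regulators of male germ cell fate were higher in XY. Nanos2 (ENSMUSG00000051965, chr7:18721325-18722887 on the plus strand, GRCm39) encodes an RNA-binding protein that holds XY germ cells in the male pathway and represses meiotic transcripts. It was measured at 27.7, 28.8, 26.6 and 25.9 CPM in XY and 0.516, 1.34, 0.647 and 0 CPM in XX. Every XY library was thus far above every XX library, of which 1 had no count (log2 fold change 5.34, SE 0.71, FDR 8.04e-08). Dnd1, the partner of NANOS2 in binding target RNAs, was at 275, 372, 278 and 328 CPM in XY and 18.1, 16.7, 14.9 and 9.10 CPM in XX. The groups did not overlap, and Dnd1 was 21.9-fold higher in XY (log2 fold change 4.46, SE 0.27). Dppa4, a chromatin-associated protein of pluripotent and germ cells, was at 711, 836, 887 and 741 CPM in XY and 33.0, 23.4, 20.1 and 31.0 CPM in XX. It was high in all 4 XY libraries and under 35 CPM in all XX libraries (log2 fold change 4.87, SE 0.19, FDR 4.78e-26). Nanos3, which protects migrating germ cells from apoptosis, was also higher in XY (59.6 ± 12.99 v 3.18 ± 0.715 CPM, SD, n = 4), as was Lin28a, an inhibitor of let-7 maturation (39.7 ± 6.59 v 7.65 ± 1.85 CPM). Of the 13 genes in this list, 5 were higher (38.5% against 22.8% of all genes). The 2 that were lower (15.4% against 18.1%) were the RNA-binding genes Ybx2 (log2 fold change -2.51) and Celf4 (-1.57). The median over the 13 was 0.40.

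Most genes of the piRNA pathway were higher in XY. The pathway makes small RNAs from transposon transcripts in cytoplasmic granules, loads them onto PIWI proteins and carries them to the nucleus to direct DNA methylation. Of 21 biogenesis genes tested, 14 were higher and 0 lower in XY (66.7% higher against 22.8% of all genes), with a median log2 fold change of 1.49. Piwil2 (MILI), which takes part in slicing and amplifying piRNAs in the cytoplasm, was at 386, 459, 383 and 427 CPM in XY and 59.9, 74.9, 67.9 and 71.7 CPM in XX. The lowest XY library was more than 5 times the highest XX library (log2 fold change 2.60, SE 0.13, FDR 7.29e-19). Tdrd1, the Tudor-domain scaffold of PIWIL2, was at 278, 346, 282 and 295 CPM in XY and 37.2, 42.2, 40.8 and 23.0 CPM in XX. It too was high in every XY library (log2 fold change 3.13, SE 0.17, FDR 1.03e-18). The helicase gene Tdrd9 (3.58), Pnldc1, which trims piRNA 3′ ends (2.99), Tdrd5 (2.72), and Henmt1, which methylates piRNA 3′ ends (2.14), were all DEGs on the log2 scale given. Piwil1 (MIWI), best known from later spermatogenesis, was at 51.2 ± 12.2 v 3.58 ± 0.837 CPM and was also called. The 7 biogenesis genes with no call included Ddx4 (log2 fold change 0.47), Mov10l1, the helicase that feeds precursors into the pathway (0.43), Mael (0.69), Rnf17 (-0.06) and Tdrkh (-0.63). Most of these were well expressed in both sexes, with Ddx4, Mov10l1, Mael and Rnf17 above 300 CPM in XX germ cells as well.

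The nuclear branch of the pathway differed more than the cytoplasmic one in median, at 2.51 over 11 genes tested, of which 8 were higher and 1 lower. Piwil4 (ENSMUSG00000036912, chr9:14607526-14652036, minus strand), the nuclear PIWI protein MIWI2, was at 274, 265, 276 and 231 CPM in XY and 1.55, 3.35, 1.29 and 0.535 CPM in XX. This was the largest fitted fold change of the genes higher in XY (log2 fold change 7.42, SE 0.57, FDR 2.50e-15). Spocd1, which links MIWI2 to the DNA methylation machinery, was at 181, 219, 218 and 168 CPM in XY and 1.55, 3.35, 3.23 and 1.61 CPM in XX. All 4 XX libraries were below 4 CPM (log2 fold change 6.299, SE 0.50, FDR 8.73e-15). Morc1, a chromatin ATPase that also silences transposons, was at 255 ± 16.4 v 10.2 ± 3.62 CPM, and Gtsf1, a zinc-finger partner of PIWI proteins, at 269 ± 31.3 v 47.1 ± 9.82 CPM, both called higher. Setdb1, an H3K9 methyltransferase, was the member that was lower in XY (log2 fold change -1.500, SE 0.12, FDR 5.65e-09). Tex15, another nuclear effector of MIWI2, had 873 ± 34.2 CPM in XY and 1118 ± 48.3 CPM in XX and no call.

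Among writers and erasers of DNA methylation, 4 of 9 genes tested were higher in XY and 0 lower, with a median of 0.49. Dnmt3a, a de novo methyltransferase, was at 496, 554, 546 and 547 CPM in XY and 67.6, 60.2, 73.1 and 77.6 CPM in XX. The XY replicates 4, 5 and 6 lay within 10 CPM of each other and replicate 2 was lower, yet it was still more than 6 times the highest XX library (log2 fold change 2.91, SE 0.12, FDR 1.27e-23). Dnmt3l, the catalytically inactive cofactor that DNMT3A needs in germ cells, was at 135, 177, 131 and 107 CPM in XY and 4.13, 2.01, 5.18 and 3.75 CPM in XX. The groups were far apart (log2 fold change 5.04, SE 0.47, FDR 4.85e-12). Dnmt3b (35.6 ± 9.92 v 13.9 ± 1.83 CPM) and the demethylase gene Tet1 (80.2 ± 23.2 v 27.7 ± 4.51 CPM) were higher by smaller margins, and Tet1 was not called without the filter on low counts (log2 fold change 1.49, FDR 0.108). The maintenance methyltransferase Dnmt1 had 180.2 ± 11.5 CPM in XY and 157 ± 9.71 CPM in XX (log2 fold change 0.21, FDR 1.00), and its cofactor Uhrf1 70.7 ± 13.5 and 128 ± 19.7 CPM (log2 fold change -0.85, FDR 0.0896), neither with a call.

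Genes known from spermatogonia, the postnatal descendants of these cells, were also mostly higher in XY. Of 21 tested, 14 were higher and 2 lower, with a median of 1.62. Zbtb16 (PLZF), a transcription factor of undifferentiated spermatogonia, was at 24.6, 22.6, 17.3 and 25.2 CPM in XY and 1.03, 0, 0 and 1.07 CPM in XX. XX replicates 7 and 8 had no count, and no XX value came near the XY range (log2 fold change 5.02, SE 0.78, FDR 2.14e-06). Nxf2, an X-linked gene for an mRNA export factor of germ cells, was at 925, 961, 1047 and 975 CPM in XY and 137, 87.6, 122 and 105 CPM in XX. It was among the 5 higher genes with the largest difference in CPM (log2 fold change 3.08, SE 0.19, FDR 5.80e-17). Bcl6b, a transcriptional repressor of spermatogonial stem cells, had 85 counts in XY and 0 in XX, at least 24.0-fold higher by a floor of 3 counts over the XX group. Egr4 (73.8 ± 5.86 v 3.60 ± 1.64 CPM), Upp1 (83.1 ± 16 v 4.69 ± 1.47 CPM), Rhox10 (79.0 ± 14.1 v 2.67 ± 0.526 CPM), and the GDNF receptor genes Ret (log2 fold change 2.25) and Gfra1 (2.55) were higher as well. The 2 lower members were Sohlh2 (-2.34) and Rhox13 (-3.30). Etv5, Lhx1, Sox3, Lhx2 and Kit had fold changes between -0.14 and 0.21 on the log2 scale and no call.

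**Figure D2:**
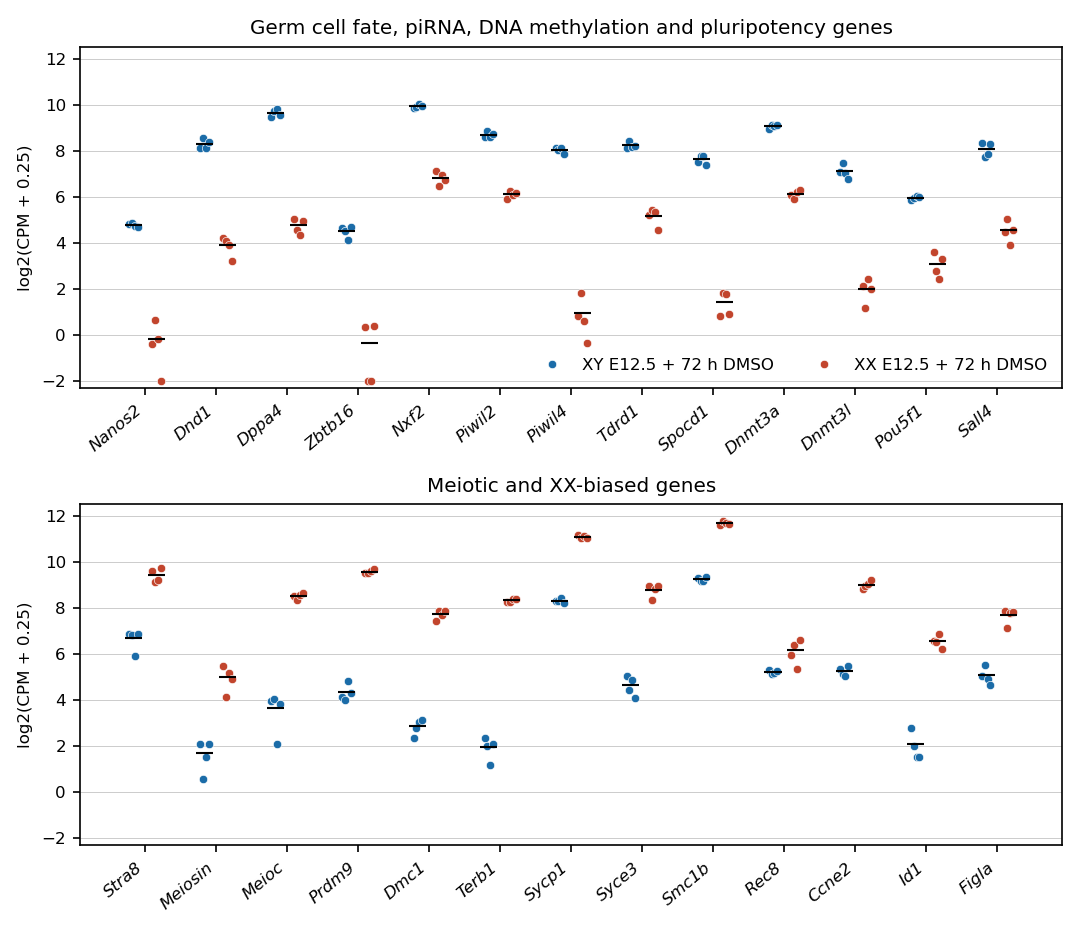
Level of 26 genes in each library as log2(CPM + 0.25), with XY E12.5 + 72 h DMSO libraries in blue, XX E12.5 + 72 h DMSO libraries in red, and short bars at the log2 of the group mean (n = 4). In the upper panel all genes lie higher in XY, with Piwil4 near 261 against 1.68 CPM, and in the lower panel all lie higher in XX, with Rec8 the gene whose groups lie closest.

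Most genes that start meiosis were lower in XY. Of 8 tested, 6 were lower and 0 higher (75.0% against 18.1% of all genes), with a median of -2.08. Stra8 (ENSMUSG00000029848, chr6:34897098-34916279, plus strand), the retinoic-acid-induced activator of the meiotic programme, was at 117, 114, 59.2 and 117 CPM in XY and 781, 553, 598 and 851 CPM in XX. XY replicate 5 was lower than the other XY libraries, and each XX library was more than 4 times each XY library (log2 fold change -2.81, SE 0.17, FDR 2.69e-16). Meiosin, the partner of STRA8, was at 4.03, 1.25, 2.66 and 3.98 CPM in XY and 44.9, 17.4, 35.6 and 30.0 CPM in XX. XX replicate 7 held the lowest XX value and was still more than 4 times the highest XY value (log2 fold change -3.47, SE 0.42, FDR 3.75e-08). Meioc, whose protein acts on RNA with YTHDC2 to extend meiotic prophase, was at 15.2, 16.3, 3.99 and 13.9 CPM in XY and 367, 323, 371 and 398 CPM in XX. XY replicate 5 was again the lowest (log2 fold change -4.96, SE 0.26, FDR 8.15e-21). Ythdc2 was at 19.1 ± 3.31 v 64.3 ± 16.4 CPM, and Gata2, a BMP-responsive factor, at 4.27 ± 3.81 v 18.8 ± 4.26 CPM, both lower in XY. Stra8 was thus not silent in XY germ cells. Its mean there was 102 CPM, against 2.98 CPM for Meiosin and 12.4 CPM for Meioc, levels that were not scaled by transcript length.

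Subunits of cohesin, the ring that holds sister chromatids together, differed in both directions, with 3 of 9 lower and 1 higher (median -0.51). Of the meiotic subunits, Smc1b was at 624, 568, 578 and 646 CPM in XY and 3132, 3444, 3236 and 3179.8 CPM in XX, the largest difference in CPM among the genes called lower. Each XX library was more than 4 times each XY library (log2 fold change -2.42, SE 0.12, FDR 1.11e-19). Stag3 (log2 fold change -1.33) and Rad21l (-2.58) were lower as well. Rec8, the meiotic kleisin and a direct STRA8 target, was the exception. It was at 38.9, 34.7, 35.3 and 38.5 CPM in XY and 60.9, 84.3, 40.1 and 98.0 CPM in XX. All XX values were above all XY values, but XX replicate 8 exceeded the highest XY library by about 1 CPM and the gene had no call (log2 fold change -0.81, SE 0.19, FDR 0.240). Rad21, the mitotic kleisin, went the other way, at 323, 328, 329.5 and 346 CPM in XY and 80.0, 44.2, 41.4 and 55.7 CPM in XX. The lowest XY library was about 4 times the highest XX library (log2 fold change 2.60, SE 0.17, FDR 2.77e-15). The shared subunits Smc3, Smc1a, Stag1 and Stag2 had log2 fold changes between -0.51 and 0.30 and no call.

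The chromosome axis and synaptonemal complex, the protein zipper between paired homologues, was lower almost throughout. Of 11 genes tested, 10 were lower and 0 higher, with a median of -2.08. Sycp1, the transverse filament, was at 312, 317, 347 and 294 CPM in XY and 2292, 2109, 2196 and 2105 CPM in XX. The XX libraries were all more than 6 times the XY libraries (log2 fold change -2.78, SE 0.10, FDR 1.11e-24). Syce3, a central element protein, was at 32.2, 21.3, 28.6 and 16.6 CPM in XY and 487, 322, 444 and 498 CPM in XX. It showed the largest fold change of the list (log2 fold change -4.17, SE 0.20, FDR 5.22e-22). Sycp3, a core of the axis, was at 506 ± 45.9 v 1890.3 ± 233 CPM, so its transcript was abundant in XY germ cells while being 3.84-fold lower than in XX. Sycp2 (-2.02), Syce1 (-2.15), Syce2 (-2.75), Tex12 (-1.77), Hormad1 (-1.72) and Hormad2 (-2.72) were lower on the log2 scale given. Trip13, the ATPase that removes HORMAD proteins from synapsed axes, had 51.2 ± 3.497 CPM in XY and 56.9 ± 5.97 CPM in XX and no call.

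Genes for the formation of meiotic DNA double-strand breaks had the lowest median of the meiotic lists, -2.41, with 7 of 9 lower and 0 higher. Prdm9, the histone methyltransferase that sets where breaks fall, was at 17.0, 15.9, 28.0 and 19.2 CPM in XY and 732, 734, 769 and 811 CPM in XX. The XX libraries spanned only 732 to 811 CPM and none of the XY libraries passed 28.0 CPM (log2 fold change -5.32, SE 0.24, FDR 1.93e-23). Zcwpw1, the reader of PRDM9 marks, was at 504 ± 47.1 v 1772 ± 54.9 CPM, and thus abundant in both sexes and lower in XY. Spo11, the transesterase that cuts DNA, was at 5.44 ± 2.52 v 30.2 ± 4.88 CPM, its partner Top6bl at 6.71 ± 3.07 v 60.1 ± 11 CPM, and the accessory factors Iho1 and Mei1 had log2 fold changes of -3.84 and -3.55. Rec114 (56.7 ± 5.81 v 52.7 ± 15.0 CPM, log2 fold change 0.06) and Mei4 (-1.33) had no call.

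Downstream of the breaks, 10 of 17 strand exchange genes were lower and 0 higher (median -1.26). Dmc1, the meiosis-specific recombinase, was at 4.92, 6.69, 7.99 and 8.63 CPM in XY and 170.4, 233, 206 and 229.7 CPM in XX. No XY library reached 9 CPM (log2 fold change -4.91, SE 0.32, FDR 2.92e-17). The single-strand binding factor Meiob (-4.38) differed by a similar amount, and Brca2, which loads recombinases such as DMC1 onto DNA, by less (-2.02). Swi5, Sfr1, Palb2, Mcm8, Mcm9, Hrob and Mnd1 had no call. Of 14 crossover genes, 11 were lower and 0 higher (median -1.59). The MutSγ pair Msh5 (14.5 ± 3.54 v 239.6 ± 34.7 CPM) and Msh4 (10.7 ± 2.44 v 63.6 ± 7.998 CPM) were both lower, as was the helicase Hfm1 (-2.70), whereas Mlh3 had 65.6 ± 5.45 v 84.6 ± 11.6 CPM and no call.

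Genes that tether telomeres to the nuclear envelope, so that chromosomes can move and pair, were mostly lower in XY as well. Of 9 tested, 6 were lower and 0 higher (median -2.27). Terb1 (ENSMUSG00000052616, chr8:105173351-105236545, minus strand) was at 4.92, 3.76, 2.00 and 3.98 CPM in XY and 301, 308, 335 and 332 CPM in XX. The XX values lay within 35 CPM of each other and no XY library passed 5 CPM (log2 fold change -6.37, SE 0.40, FDR 2.24e-18). Its partners Terb2 (-3.29) and Majin (-4.11), the CDK2 activator Spdya (-5.08) and the linker Kash5 (-2.27) were lower too. Cdk2 had 42.9 ± 5.91 v 77.5 ± 5.98 CPM, and the shelterin gene Terf1 81.0 ± 15.4 v 109 ± 18.2 CPM, both without a call. Of 14 DNA damage checkpoint genes, 9 were lower and 2 higher (median -1.51). The kinases Atr (97.7 ± 4.08 v 584 ± 48.3 CPM) and Atm (73.8 ± 15.6 v 272 ± 43.0 CPM) and their substrate H2ax (63.9 ± 7.96 v 263 ± 20.3 CPM) were lower in XY, and the 2 higher genes were Chek2 (1.68) and Rad9a (3.03). Rad9a and Rad9b, alternative subunits of the 9-1-1 clamp, went in opposite directions, with Rad9b at -1.55.

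**Figure D3:**
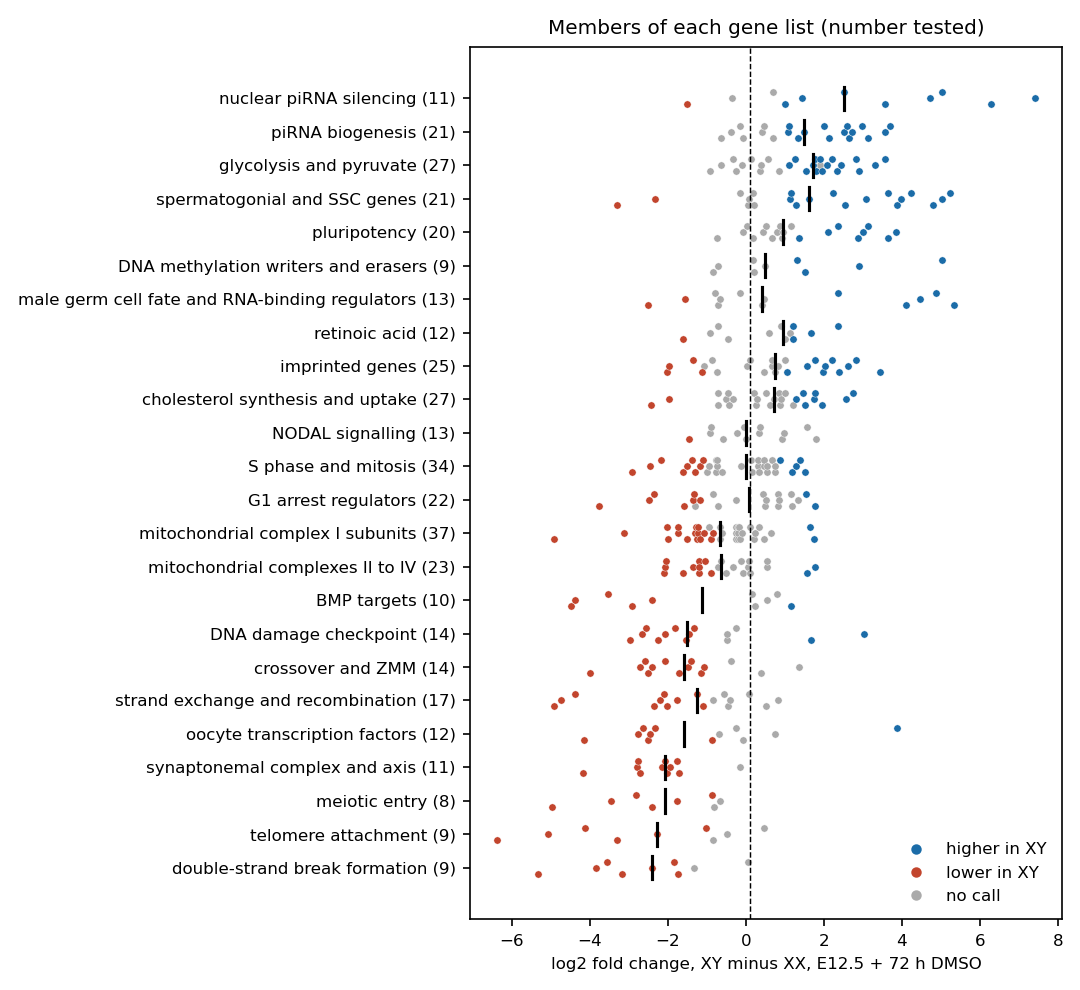
Log2 fold change, XY minus XX E12.5 + 72 h DMSO, of each tested member of 24 gene lists, with the number tested in brackets, the list median as a black bar and the median of all genes tested (0.10) as a dashed line. Points are blue where called higher, red where called lower and grey without a call, and in the meiotic lists at the foot red points are the majority, down to Terb1 at -6.37. The cohesin list is not drawn.

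Promoter sequence was set beside these differences for the genes that moved together. The 300 bases upstream of the canonical GENCODE M39 start were read from GRCm39 for 98.4% of the genes tested. They were searched on both strands for CACGTG, the E-box bound by MAX dimers, which is its own reverse complement, and for CCTCAG, the core of the motif described for STRA8 and MEIOSIN, whose reverse complement is CTGAGG. The motifs do not overlap. CACGTG was present in 8.17% of all promoters, 9.63% of those of genes higher and 7.64% of those of genes lower in XY. CCTCAG was present in 25.1%, 25.7% and 29.1%. Of the 53 genes called lower in the meiotic lists, 10 had CACGTG (18.9%) and 16 had CCTCAG (30.2%), and of the 20 genes called higher in the piRNA lists, 7 had CACGTG (35%) and 4 had CCTCAG (20%). Over all tested members, called or not, CACGTG was present in 14.5% of the 76 genes of the meiotic lists and 31.0% of the 29 of the piRNA lists, and CCTCAG in 27.6% and 17.2%. The median ratio of observed to expected CpG was 0.605 over all promoters, 0.532 for genes higher and 0.693 for genes lower in XY. A match describes the letters of this window and no binding was measured.

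Printed here are 2 meiotic genes lower in XY and 3 piRNA or methylation genes higher in XY whose windows held both motifs, followed by the genes with the largest fold change in each direction among these lists, whose windows held neither. They are GRCm39 sequences, 5′ to 3′ on the strand of the gene, and capitals mark CACGTG and CCTCAG or CTGAGG. Their positions are Meiosin (chr7:18852294-18852593, minus strand), Hormad1 (chr3:95466639-95466938, plus strand), Dnmt3l (chr10:77885376-77885675, plus strand), Tdrd1 (chr19:56814341-56814640, plus strand), Tdrd9 (chr12:111937665-111937964, plus strand), Terb1 (chr8:105236520-105236819, minus strand) and Piwil4 (chr9:14652037-14652336, minus strand).
Meiosin: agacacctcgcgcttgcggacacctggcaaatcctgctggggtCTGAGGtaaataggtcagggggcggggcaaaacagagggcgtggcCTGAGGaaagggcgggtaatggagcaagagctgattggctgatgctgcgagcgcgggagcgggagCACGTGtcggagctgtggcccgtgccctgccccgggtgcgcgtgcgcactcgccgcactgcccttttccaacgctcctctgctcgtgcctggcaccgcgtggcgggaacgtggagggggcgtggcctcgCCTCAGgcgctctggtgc
Hormad1: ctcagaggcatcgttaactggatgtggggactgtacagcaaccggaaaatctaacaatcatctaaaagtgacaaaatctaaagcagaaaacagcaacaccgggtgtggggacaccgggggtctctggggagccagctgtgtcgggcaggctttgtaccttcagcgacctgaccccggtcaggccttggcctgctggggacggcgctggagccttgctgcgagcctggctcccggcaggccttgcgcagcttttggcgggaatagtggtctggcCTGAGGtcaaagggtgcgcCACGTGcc
Dnmt3l: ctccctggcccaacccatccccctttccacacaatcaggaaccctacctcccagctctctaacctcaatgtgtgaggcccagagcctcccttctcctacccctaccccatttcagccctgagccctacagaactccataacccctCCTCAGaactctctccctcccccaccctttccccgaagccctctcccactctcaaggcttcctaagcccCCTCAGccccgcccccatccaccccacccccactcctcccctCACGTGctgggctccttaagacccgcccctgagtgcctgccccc
Tdrd1: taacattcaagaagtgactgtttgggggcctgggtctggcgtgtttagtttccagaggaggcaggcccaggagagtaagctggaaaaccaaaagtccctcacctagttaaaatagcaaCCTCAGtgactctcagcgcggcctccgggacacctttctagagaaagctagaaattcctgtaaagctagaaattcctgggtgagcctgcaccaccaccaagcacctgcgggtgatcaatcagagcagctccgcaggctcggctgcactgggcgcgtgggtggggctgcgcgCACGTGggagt
Tdrd9: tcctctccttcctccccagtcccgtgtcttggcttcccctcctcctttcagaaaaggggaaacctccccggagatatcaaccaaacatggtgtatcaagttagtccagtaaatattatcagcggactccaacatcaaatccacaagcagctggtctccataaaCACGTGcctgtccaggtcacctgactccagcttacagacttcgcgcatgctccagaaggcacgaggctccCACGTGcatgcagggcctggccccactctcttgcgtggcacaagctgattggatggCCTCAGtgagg
Terb1: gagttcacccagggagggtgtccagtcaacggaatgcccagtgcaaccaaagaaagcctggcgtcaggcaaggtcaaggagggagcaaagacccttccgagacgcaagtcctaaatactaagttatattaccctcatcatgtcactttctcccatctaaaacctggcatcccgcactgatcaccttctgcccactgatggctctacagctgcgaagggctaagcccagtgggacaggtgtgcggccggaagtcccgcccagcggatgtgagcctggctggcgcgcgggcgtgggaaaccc
Piwil4: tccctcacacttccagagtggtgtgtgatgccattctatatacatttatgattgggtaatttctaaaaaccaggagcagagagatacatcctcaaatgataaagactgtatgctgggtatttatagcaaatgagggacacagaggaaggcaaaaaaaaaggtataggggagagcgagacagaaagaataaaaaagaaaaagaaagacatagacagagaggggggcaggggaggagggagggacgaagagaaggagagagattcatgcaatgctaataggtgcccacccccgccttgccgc

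The Meiosin window held 1 CACGTG and 3 copies of the second motif, and that of Tdrd9 2 copies of CACGTG. The Dnmt3l window held both motifs and 4 CpG, against 28 CpG in that of Meiosin, although both windows were over 60% GC. The motifs therefore occurred upstream of genes that differed in opposite directions.

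BMP signals from ovarian somatic cells are known to act on XX germ cells, and several transcripts that respond to BMP were lower in XY. Of 10 tested, 5 were lower and 1 higher (median -1.11). Id1, an immediate SMAD target, was at 6.71, 3.76, 2.66 and 2.65 CPM in XY and 95.5, 92.3, 116 and 73.3 CPM in XX. All XX libraries were above all XY libraries (log2 fold change -4.48, SE 0.38, FDR 5.11e-13). Id3 (8.01 ± 3.60 v 87.0 ± 20.9 CPM), Id2 (2.99 ± 1.49 v 22.4 ± 1.01 CPM) and Msx1 (0.653 ± 0.565 v 17.0 ± 4.80 CPM) followed, while Id4, associated with spermatogonial stem cells, was the higher member (75.9 ± 15.5 v 33.8 ± 4.51 CPM). The inhibitory Smad6 and Smad7 were at 5.38 ± 1.77 v 3.52 ± 2.12 and 5.26 ± 1.10 v 4.17 ± 1.00 CPM, without a call.

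Of 12 transcription factors of the oocyte programme, 7 were lower and 1 higher in XY (median -1.60). Figla, which directs folliculogenesis and zona pellucida genes, was at 32.2, 46.0, 30.0 and 25.2 CPM in XY and 236, 139, 216 and 229 CPM in XX. XX replicate 7 was below the other XX libraries but about 3 times the highest XY library (log2 fold change -2.65, SE 0.19, FDR 6.63e-14). Lhx8 (1.81 ± 0.393 v 13.8 ± 3.09 CPM), Irx3 (1.36 ± 0.918 v 23.8 ± 2.18 CPM) and Sohlh2 (11.7 ± 4.35 v 57.4 ± 14.4 CPM) were lower too. Sohlh1, the bHLH partner of SOHLH2 in oocytes and spermatogonia, was the higher gene, at 228, 248, 200.4 and 224 CPM in XY and 15.0, 19.4, 25.2 and 8.03 CPM in XX. Each XY library was at least 7 times each XX library (log2 fold change 3.88, SE 0.25, FDR 7.86e-17), so the partners SOHLH1 and SOHLH2 had transcripts that differed in opposite directions. Nobox, needed slightly later in oocytes, had 4.57 ± 2.79 v 6.17 ± 2.18 CPM and no call. Of 11 genes for oocyte products such as zona pellucida proteins, only Kit and Ooep passed the filter on low counts, and Ooep, a maternal factor of the early embryo, was higher in XY (8.14 ± 3.28 v 1.59 ± 0.676 CPM).

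Pluripotency genes are carried by early germ cells of both sexes and then switched off. Of 20 tested, 8 were higher and 0 lower in XY (40.0% against 22.8% of all genes, median 0.95). Pou5f1 (OCT4) was at 57.7, 62.3, 64.6 and 63.0 CPM in XY and 11.9, 6.69, 5.18 and 9.64 CPM in XX. The groups did not overlap (log2 fold change 2.88, SE 0.29, FDR 1.27e-09). As the sort used a Pou5f1 reporter, germ cells without detectable eGFP are not in these libraries, and the part of the sort in this or other differences was not tested. Sall4, a zinc-finger factor of germline stem cells, was at 321, 209, 229 and 315 CPM in XY and 21.7, 32.8, 14.9 and 23.0 CPM in XX. XX values stayed below 33 CPM (log2 fold change 3.64, SE 0.28, FDR 9.11e-14). Utf1 (325 ± 44.8 v 23.0 ± 3.70 CPM), Dppa3 (871 ± 146 v 96.2 ± 20.8 CPM), Dppa2 (10.7 ± 2.69 v 1.37 ± 1.499 CPM) and Esrrb (9.71 ± 2.09 v 2.03 ± 1.15 CPM) were higher as well. Nanog (5.34 ± 4.20 v 1.88 ± 0.952 CPM) and Sox2 (41.6 ± 10.3 v 23.3 ± 7.36 CPM) had no call, and their means at 0 h, in the other pool, were 73.3 and 303 CPM in XY and 73.4 and 374 CPM in XX.

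Ligands and targets of NODAL, a TGF-beta family signal of the early testis, were nearly all without a call at 72 h. Of 13 tested, 0 were higher and 1 lower, the receptor gene Acvr2a (log2 fold change -1.46), with a median of 0.01. Nodal itself was at 0.541 ± 0.370 v 0.655 ± 0.781 CPM, its co-receptor Cripto (Tdgf1) at 0.448 ± 0.895 v 0.129 ± 0.258 CPM, and the feedback inhibitors Lefty1 and Lefty2 at 2.63 ± 0.970 v 0.597 ± 0.443 and 2.41 ± 0.613 v 0.592 ± 0.0773 CPM. At levels this low, differences of the size seen for Lefty1 and Lefty2 (log2 fold changes 1.81 and 1.57) did not pass the test.

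The sex difference at 72 h was set against that at 24 h in DMSO by an interaction term. Libraries of 24 h belonged to pool 1 and those of 72 h to pool 2, so time and pool cannot be told apart for a level, but each sex difference lies within a pool, so a shift shared by all libraries of a pool cancels. Of all genes tested, 26.1% (3979) had a different sex difference at 72 h, with 16.2% moving towards XY and 9.93% towards XX. XX 24 h libraries carried Y-linked counts equal to 4.20% of those in their index partners, the libraries of pool 2 that bear an identical sample index, or 3.25% once the level of these genes in XX 0 h libraries is subtracted, and taking out the latter share from the pool 1 libraries, an alternative chosen after seeing the data, left 3611 genes, of which 3570 (89.7% of 3979) were shared. Values without that share stand beside those below.

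Some sex differences at 72 h were wider than, or opposite to, those at 24 h. Dnmt3a had 139 ± 23.1 v 139 ± 19.4 CPM at 24 h, and the change in its sex difference was 2.91 (SE 0.16, FDR 6.47e-17), or 2.74 without the shared-index counts. Dnmt3l was at 1.51 ± 1.54 v 9.42 ± 6.65 CPM at 24 h, with a change of 7.79 (SE 0.85, FDR 1.13e-09), or 5.88. Spocd1 was at 3.31 ± 4.76 v 8.47 ± 4.05 CPM and Piwil4 at 16.4 ± 11.4 v 22.8 ± 7.69 CPM at 24 h, with changes of 8.49 (SE 0.76, FDR 3.30e-12), or 5.66, and 8.18 (SE 0.63, FDR 4.14e-14), or 7.15. The 24 h CPM still hold the shared-index counts. Without them the fitted 24 h difference of Dnmt3l went from -2.76 to -0.84, that of Spocd1 from -2.19 to 0.64 and that of Piwil4 from -0.76 to 0.27 on the log2 scale, so the direction at 24 h depended on these counts for Spocd1 and Piwil4, while the changes of all 3 remained called. Terb1 had 4.05 ± 1.58 v 35.8 ± 19.1 CPM at 24 h and 3.67 ± 1.22 v 319 ± 16.9 CPM at 72 h, a change of -3.47 (SE 0.56, FDR 3.22e-05), or -3.00. Sall4 in XX had means of 492 CPM at 0 h, 271 CPM at 24 h and 23.1 CPM at 72 h, and in XY of 505, 393 and 269 CPM.

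Other sex differences narrowed. Lefty1 and Lefty2 changed by -3.23 (SE 0.95, FDR 0.0181), or -3.31, and by -3.54 (SE 0.87, FDR 0.00439), or -3.54, with XY means of 99.1 and 75.0 CPM and XX means of 3.63 and 2.303 CPM at 24 h. Etv1, an ERK-responsive ETS factor, even changed sides, from 56.2 ± 18.3 v 2.08 ± 1.01 CPM at 24 h to 2.67 ± 1.44 v 9.47 ± 2.26 CPM at 72 h, a change of -6.42 (SE 0.72, FDR 3.35e-09), or -6.40. At 72 h Etv1 was called lower (log2 fold change -1.82, FDR 0.0286), but not without XX replicate 4 (-1.68, FDR 0.0712), XX replicate 11 (-1.73, FDR 0.0620) or XY replicate 6 (-1.44, FDR 0.118). Rec8 had 36.4 ± 4.25 v 335 ± 35.1 CPM at 24 h and 36.8 ± 2.17 v 70.8 ± 25.6 CPM at 72 h, a change of 2.31 (SE 0.25, FDR 1.46e-07), or 2.57. Gata2 had 3.55 ± 1.54 v 133 ± 28.4 CPM at 24 h, a change of 2.83 (SE 0.64, FDR 0.00320), or 3.13. For both, the difference towards XX was thus smaller at 72 h. Stra8 had 106 ± 10.4 v 972 ± 263 CPM at 24 h.

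**Figure D4:**
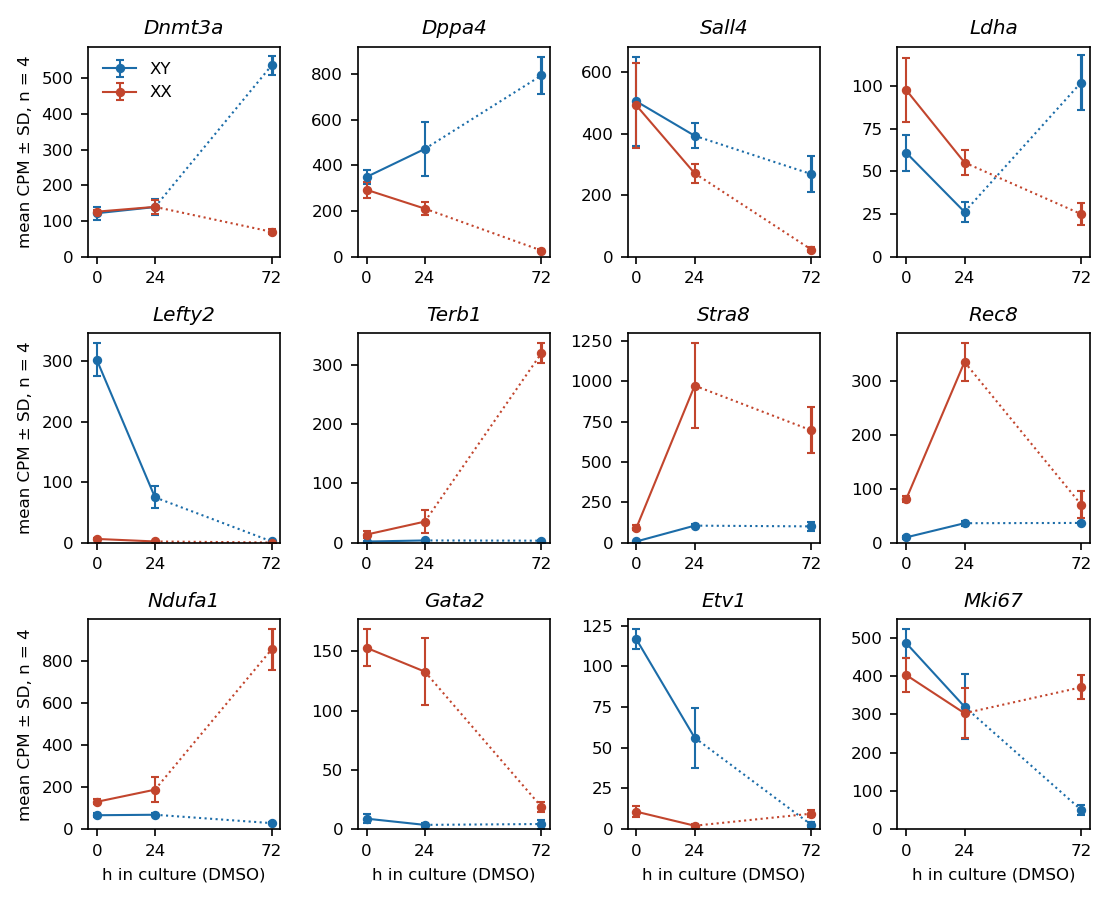
Mean CPM ± SD (n = 4 libraries) of 12 genes at 0 h, 24 h and 72 h in DMSO, XY in blue and XX in red; dotted segments join libraries of different pools, so that time and pool cannot be told apart along them. The Dnmt3a lines lie together at 0 h and 24 h and stand at 536 against 69.6 CPM at 72 h, and the Lefty2 and Etv1 lines, far apart at 0 h with XY above XX, stand at 2.41 against 0.592 CPM and 2.67 against 9.47 CPM at 72 h.

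Cell cycle genes differed in both directions. Of 34 S phase and mitosis genes, 9 were lower and 5 higher in XY (26.5% against 18.1% and 14.7% against 22.8%), with a median of 0.01. Mki67, a marker of cycling cells, was at 50.6, 51.0, 33.3 and 67.0 CPM in XY and 332, 363, 382 and 406 CPM in XX. XY replicate 5 was lowest, and every XX library was more than 4 times every XY library (log2 fold change -2.92, SE 0.18, FDR 7.86e-17). At 24 h Mki67 had 320.2 ± 85.3 v 303 ± 65.4 CPM. Rrm2, a ribonucleotide reductase subunit (10.4 ± 3.89 v 55.9 ± 10.7 CPM), Birc5 (30.8 ± 4.14 v 138 ± 6.09 CPM), Pcna (70.4 ± 9.07 v 158 ± 12.4 CPM) and Mcm5 (109 ± 14.2 v 319 ± 46.1 CPM) were also lower. Within the MCM helicase, whose 6 subunits act together, Mcm7 was higher in XY (196 ± 24.7 v 77.1 ± 13.05 CPM) and Mcm2, Mcm3, Mcm4 and Mcm6 had no call. The B-type cyclin Ccnb1 was higher (129 ± 23.5 v 43.3 ± 13 CPM) and Cdk1 had 13.3 ± 4.55 v 27.0 ± 4.33 CPM and no call.

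Of 22 regulators of G1, 7 were lower and 2 higher (31.8% against 18.1% and 9.1% against 22.8% of all genes, median 0.10). Ccne2, an E-type cyclin that drives entry into S phase, was at 39.8, 34.7, 32.6 and 44.5 CPM in XY and 452, 492, 521 and 597 CPM in XX. It was the largest change of the list and the groups were far apart (log2 fold change -3.78, SE 0.19, FDR 5.23e-21). Ccne1 (3.82 ± 2.13 v 19.5 ± 6.79 CPM) and Ccnd1 (9.74 ± 3.12 v 28.4 ± 6.09 CPM) were lower as well, and the G1 kinases Cdk4 (296 ± 11.9 v 83.6 ± 21.0 CPM) and Cdk6 (41.7 ± 6.44 v 16.1 ± 7.06 CPM) were higher. Of the kinase inhibitors, Cdkn1b (p27), known to accumulate in arrested XY germ cells, was at 15.7, 13.8, 15.3 and 19.9 CPM in XY and 2.06, 8.70, 11.6 and 10.2 CPM in XX. The XY values lay above the XX values, with XX replicate 8 only about 2 CPM below the lowest XY library, and the gene had no call (log2 fold change 1.18, SE 0.35, FDR 0.108). Cdkn2b had 8.91 ± 3.67 v 3.60 ± 2.55 CPM and no call either (FDR 0.120). Cdkn1c (75.4 ± 15.9 v 191 ± 27.0 CPM) and Cdkn2c (2.81 ± 1.76 v 13.5 ± 1.29 CPM) were lower in XY.

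Energy metabolism split by pathway. Of 27 genes of glycolysis and pyruvate use, 16 were higher and 0 lower in XY (59.3% against 22.8%), with a median of 1.73. Eno1 (enolase) was at 256, 301, 273 and 284 CPM in XY and 20.6, 32.8, 29.8 and 30.5 CPM in XX. Every XY library was more than 7 times every XX library (log2 fold change 3.32, SE 0.16, FDR 1.18e-21). Ldha, which turns pyruvate into lactate, was at 111, 119, 82.5 and 96.9 CPM in XY and 27.9, 25.4, 16.2 and 30.5 CPM in XX. The lowest XY library was above the highest XX library (log2 fold change 2.07, SE 0.20, FDR 6.42e-09). Its sex difference ran the other way at 24 h (26.3 ± 5.69 v 55.2 ± 7.17 CPM), and the change was 3.31 (SE 0.28, FDR 1.41e-11), or 3.46 without the shared-index counts. The glucose transporter Slc2a3 (57.6 ± 5.84 v 7.75 ± 1.54 CPM), the hexokinases Hk1 (2.33) and Hk2 (2.45), Aldoa (264 ± 12.1 v 69.5 ± 10.5 CPM), Pgam1 (2.90), Pkm (637 ± 35.1 v 170.3 ± 28.4 CPM), and Pdk1, which holds pyruvate out of the mitochondrion (1.81), were higher in XY. Pgk1 was low in both sexes (1.64 ± 0.693 v 3.11 ± 1.42 CPM), and Tpi1, Ldhb, Pdha1, Pdhb and Dlat had no call. Several glycolytic genes, Eno1, Gapdh, Pkm, Ldha and Pgk1 among them, have many processed pseudogenes in the mouse genome, so reads that map to several copies make their counts uncertain.

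Nuclear genes for the respiratory chain tended to be lower in XY, in lists of subunits that were set after values had been seen. Of 37 subunits of complex I, 16 were lower and 2 higher (43.2% against 18.1% and 5.41% against 22.8%), with a median of -0.65. Of 23 subunits of complexes II to IV, 10 were lower and 2 higher (median -0.63), and of 18 genes of ATP synthase, 5 were lower and 2 higher (median -0.47). Ndufa1 (ENSMUSG00000016427, chrX:36451241-36454849, minus strand), an X-linked subunit of complex I, was at 32.2, 25.1, 33.3 and 22.6 CPM in XY and 917, 711, 906 and 877 CPM in XX. All XX libraries were above 700 CPM and all XY libraries below 34 CPM (log2 fold change -4.93, SE 0.18, FDR 4.97e-27). At 24 h it had 68.0 ± 7.16 v 187 ± 59.7 CPM, and the change in its sex difference was -3.59 (SE 0.24, FDR 5.86e-15), or -3.52. Atp5pb, a subunit of the stalk of ATP synthase, was at 97.6, 73.6, 82.5 and 109 CPM in XY and 1184, 1089.9, 1221 and 1159 CPM in XX. Each XX library was more than 9 times each XY library (log2 fold change -3.71, SE 0.11, FDR 1.06e-29), and the change since 24 h was -3.05 (SE 0.15, FDR 1.36e-18), or -3.02. Ndufv2 (68.5 ± 7.89 v 587 ± 66.6 CPM), Cox5a (203 ± 10.3 v 846 ± 66.6 CPM), Uqcr10 (160.0 ± 13.5 v 667 ± 83.8 CPM) and Atp5pd (26.9 ± 2.42 v 178 ± 40.9 CPM) were lower too. Ndufs8 (382 ± 18.1 v 111 ± 27.9 CPM), Ndufv3 (334 ± 23.1 v 107 ± 13.3 CPM), Cox8a (255 ± 20.6 v 71.8 ± 16.1 CPM) and Cox7b (113 ± 10.7 v 36.7 ± 10.4 CPM) were higher. Subunits of a complex thus did not move as a block, with complex I log2 fold changes from -4.93 to 1.75. Transcripts encoded by the mitochondrial genome took 1.62 to 2.03% of counts in XY and 1.66 to 1.75% in XX (exact two-sided permutation test, p = 0.371, adjusted p = 0.371). In XY the share was 2.02 and 2.03% in the 2 libraries with the smallest totals, replicates 5 and 6, and 1.62 and 1.69% in replicates 2 and 4, and whether depth or saturation of UMIs took part was not tested. Of 24 mitochondrially encoded genes tested, 1 was lower and 0 higher.

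**Figure D5:**
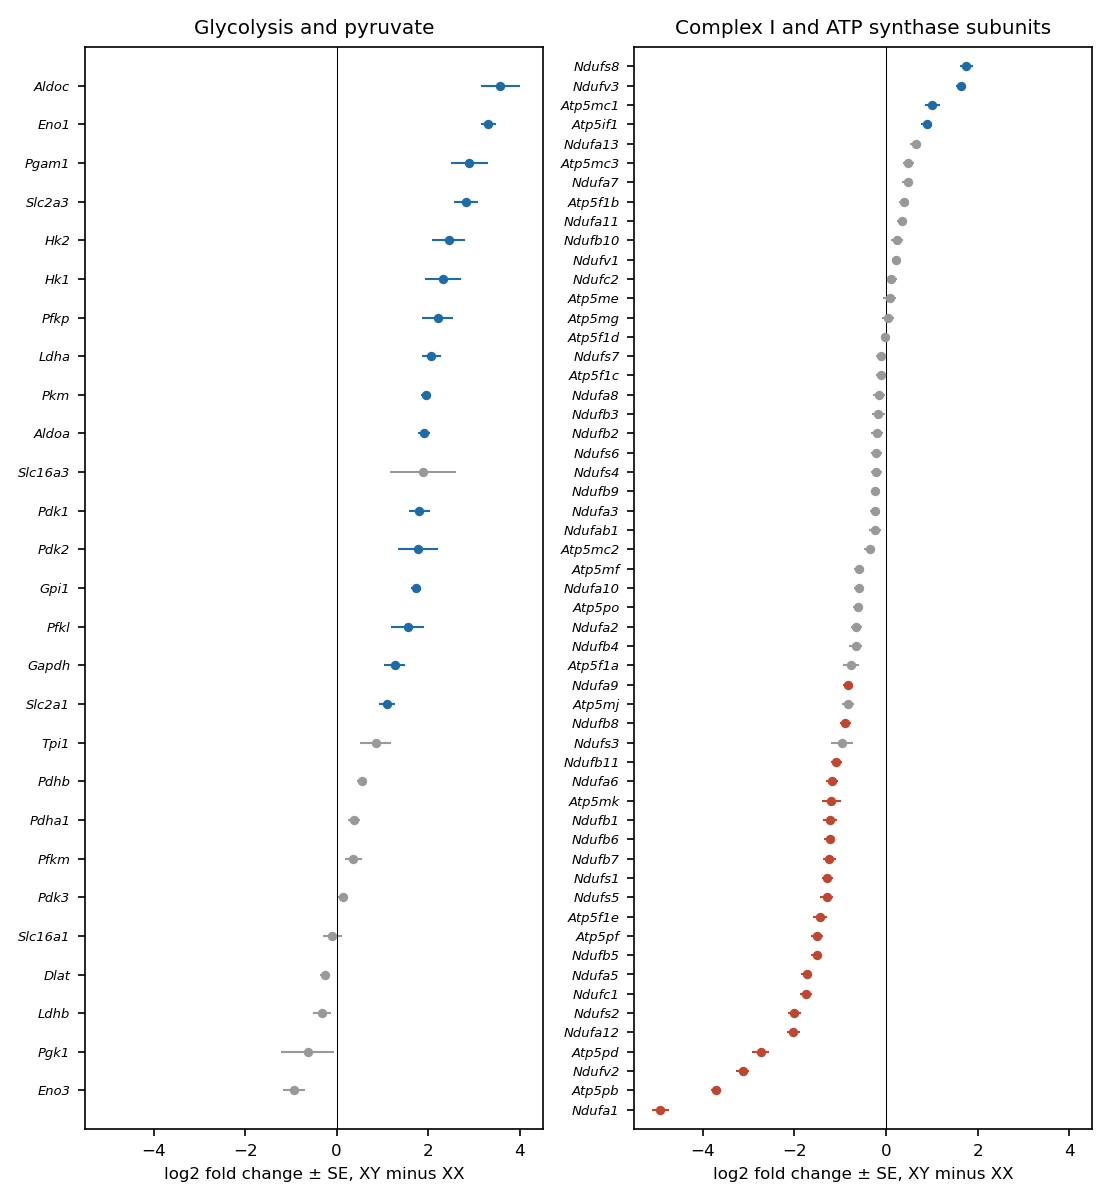
Log2 fold change ± SE, XY minus XX E12.5 + 72 h DMSO, of the genes of glycolysis and pyruvate use (left) and of complex I and ATP synthase subunits (right), in order of size. Blue marks genes called higher, red genes called lower and grey genes without a call; glycolytic genes reach 3.58 at Aldoc, and the respiratory chain runs from 1.75 at Ndufs8 to -4.93 at Ndufa1.

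Some retinoic acid receptor genes were higher in XY. Of 12 genes of retinoid signalling and metabolism, 4 were higher and 1 lower (33.3% against 22.8% and 8.3% against 18.1% of all genes, median 0.95). Rarg (21.2 ± 3.38 v 4.07 ± 2.77 CPM) and Rxra (36.4 ± 1.71 v 11.8 ± 3.55 CPM), a pair of nuclear receptors, were higher, and Rdh10, which makes retinal from retinol, was lower (10.0 ± 1.65 v 30.2 ± 4.94 CPM). Rxrb had 29.2 ± 7.14 v 54.1 ± 8.79 CPM and no call. Of 12 WNT effectors and targets, 3 were higher and 2 lower (median 0.18). The nuclear effectors Lef1 (142 ± 9.503 v 21.2 ± 4.77 CPM) and Tcf7 (106 ± 21.2 v 16.6 ± 1.56 CPM) were both higher in XY, while Ctnnb1, which codes for beta-catenin, had 259 ± 36.5 v 207 ± 22.1 CPM and no call. Of 14 ERK targets and feedback genes, 0 were higher and 3 lower (21.4% lower, near the 18.1% of all genes, median -0.26). Among the lower genes were Spred1 (31.0 ± 8.53 v 72.7 ± 8.48 CPM) and Ier2 (9.28 ± 3.60 v 26.8 ± 10.99 CPM). Dusp6, Spry2 and Etv4, direct readouts of ERK signalling, had 7.39 ± 2.73 v 3.53 ± 1.11, 6.25 ± 2.86 v 6.28 ± 2.65 and 3.99 ± 2.13 v 3.89 ± 1.56 CPM and no call.

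Of 27 cholesterol genes, 8 were higher and 2 lower in XY (29.6% against 22.8% and 7.4% against 18.1% of all genes, median 0.73). Fdft1, the squalene synthase (153 ± 16.3 v 44.3 ± 2.28 CPM), the master regulator Srebf2 (76.7 ± 8.37 v 22.7 ± 1.86 CPM) and the exporter Abcg1 (71.1 ± 26.0 v 9.39 ± 1.08 CPM) were higher, and the reductase gene Tm7sf2 was lower (2.29 ± 0.834 v 13.7 ± 4.26 CPM). Of 224 solute carrier genes tested, 71 were higher (31.7%) and 31 lower (13.8%), with a median of 0.49. Of 13 genes of the BCL2 family, 4 were higher and 0 lower (30.8% higher, not far above the 22.8% of all genes). The 4 were BH3-only genes that promote apoptosis, with Pmaip1 (NOXA) at 16.5 ± 5.45 v 2.40 ± 2.93 CPM and Bmf at 44.0 ± 10.3 v 9.23 ± 3.24 CPM. The survival genes Mcl1 (50.3 ± 8.91 v 76.3 ± 22.2 CPM) and Bcl2l1 (108 ± 8.88 v 75.1 ± 14.3 CPM) had no call. Of 15 adhesion genes, 5 were higher and 1 lower (33.3% against 22.8% and 6.7% against 18.1%), with Cd9 (92.6 ± 13.04 v 38.1 ± 6.07 CPM) and L1cam (9.18 ± 2.15 v 1.42 ± 1.07 CPM) higher. Of 13 stress and immediate early genes, 4 were higher and 2 lower (30.8% against 22.8% and 15.4% against 18.1%), with Trib3 (9.77 ± 2.10 v 0.688 ± 0.642 CPM) and Asns (168 ± 11.99 v 36.7 ± 3.44 CPM), both targets of the amino acid response, higher and the immediate early gene Ier2 lower.

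Of 25 imprinted genes tested, 10 were higher and 4 lower in XY (median 0.75). Imprints are erased in germ cells of both sexes before this stage and set again later, in the testis before birth. The maternally expressed RNAs of the Dlk1-Dio3 region on chromosome 12, Meg3 (61.3 ± 7.90 v 16.1 ± 7.41 CPM), Rian (26.9 ± 10.2 v 5.35 ± 1.91 CPM) and Mirg (11.5 ± 4.08 v 2.02 ± 2.21 CPM), were all higher in XY, as were Slc38a4 (46.5 ± 8.94 v 3.87 ± 1.25 CPM) and Peg10 (12.3 ± 4.49 v 1.44 ± 0.543 CPM). Kcnq1ot1, an antisense RNA of the Kcnq1 region (66.8 ± 4.96 v 285 ± 60.9 CPM), and Gnas (35.1 ± 6.50 v 140.0 ± 25.4 CPM) were lower. H19 had 98.5 ± 13.2 v 71.2 ± 19.8 CPM and no call. Of 18 polycomb and PRC1.6 genes, 6 were lower and 3 higher (33.3% against 18.1% and 16.7% against 22.8% of all genes, median -0.35). PRC1.6 is known to hold meiotic genes silent in germ cells before meiosis. Its subunit E2f6 was higher in XY (50.6 ± 5.53 v 8.37 ± 1.16 CPM), L3mbtl2 was lower (49.9 ± 2.59 v 98.4 ± 10.9 CPM), and Mga (333 ± 18.4 v 478 ± 25.4 CPM), Max (37.2 ± 7.26 v 24.0 ± 2.43 CPM) and Pcgf6 (62.3 ± 1.87 v 85.6 ± 4.68 CPM) had no call.

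XX germ cells reactivate their inactive X at about this stage, and more X-linked genes were lower than higher in XY. Of 635 X-linked genes tested, 18.1% were higher and 26.5% lower, with a median of -0.11, whereas over the 19 autosomes the percent lower ran from 14.7 to 19.9 and the median from -0.065 to 0.272. X-linked differences ran in both directions. Among genes lower in XY, Kdm6a, a histone demethylase that escapes X inactivation, was at 33.1, 24.2, 25.3 and 34.5 CPM in XY and 247, 227, 210.3 and 214 CPM in XX. It was 7.64-fold lower in XY, and no libraries of the 2 sexes overlapped (log2 fold change -2.93, SE 0.15, FDR 3.38e-19). Its Y homologue Uty was at 18.8 ± 2.42 CPM in XY. Kdm5c, another escape gene, was lower by 2.02-fold, Ddx3x had 257 ± 37.1 v 207 ± 27.1 CPM and Eif2s3x 16.6 ± 4.24 v 21.2 ± 5.98 CPM, without a call. Rhox13, a homeobox gene of the X-linked Rhox cluster, was at 14.3, 12.54, 9.99 and 9.95 CPM in XY and 151, 94.3, 113 and 118 CPM in XX. All XX libraries were above 90 CPM (log2 fold change -3.30, SE 0.25, FDR 4.94e-14). Rhox10, in the same cluster, was higher in XY as given above, and of 23 Rhox genes tested, 3 were lower and 2 higher. The Rhox2, Rhox3 and Rhox4 genes are near-identical copies, so their counts are uncertain. Ap1s2 (8.08 ± 1.36 v 159.7 ± 18.02 CPM) was among the 5 X-linked genes with the largest fold change towards XX. Radx, a protein of replication forks, had 130 counts in XY and 0 in XX, at least 37.1-fold higher in XY. Of 8 Y-linked genes listed that could be tested, all 8 were higher, as their absence from XX embryos fixes. Of all 18 genes annotated to the Y that were tested, 15 were higher, 2 had no call and 1 was lower, the pseudogene Gm20775, singled out after its values were seen, with 6.52 ± 2.51 v 20.3 ± 1.16 CPM (log2 fold change -1.66). XX embryos have no Y chromosome, so the origin of its counts is uncertain. Zfy1 had 149 counts in XY and 0 in XX, at least 44.7-fold higher.

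Several of the genes with the largest fold changes lay outside these pathways. Cd2, a surface protein best known from lymphocytes, was at 51.9, 41.0, 47.3 and 33.2 CPM in XY and 0.516, 0, 0 and 0 CPM in XX. It had 335 counts in XY and 1 in XX, a ratio of 322 with an exact 95% counting interval of 57.4 to 12800. Afp, a serum protein of the foetal liver and yolk sac, was at 67.1, 74.4, 84.5 and 60.4 CPM in XY and 1.55, 2.68, 0 and 1.07 CPM in XX. XX replicate 8 had no count (log2 fold change 6.07, SE 0.61, FDR 3.17e-11). Vwf, the von Willebrand factor of endothelium and platelets, was at 103, 125, 109 and 105 CPM in XY and 0, 2.01, 2.59 and 3.75 CPM in XX. Every XY library was above 100 CPM (log2 fold change 6.07, SE 0.61, FDR 3.59e-11). Ighm, the immunoglobulin heavy chain constant region, was at 143 ± 14.8 v 2.03 ± 0.830 CPM. Sdc4, a heparan sulphate proteoglycan of the cell surface, was at 902, 775, 899 and 894 CPM in XY and 42.8, 46.8, 40.1 and 57.8 CPM in XX. XY replicate 4 was lowest, and still more than 13 times the highest XX library (log2 fold change 4.21, SE 0.18, FDR 1.63e-23). Gm3858, Zscan4-ps4 and the multicopy Y-linked Rbmyf8 were also in the top 10, but copies of these sequences elsewhere make their counts uncertain.

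Among genes lower in XY by size, Pparg, a nuclear receptor best known from fat cells, was at 0, 0.836, 0 and 0 CPM in XY and 37.7, 28.8, 33.6 and 31.6 CPM in XX. It had 2 counts in XY, both in replicate 4, and 227 in XX, a ratio of 118 towards XX with a counting interval of 32.3 to 981. Inca1, which codes for a CDK inhibitor that interacts with cyclin A1, was at 4.48, 5.02, 11.98 and 5.31 CPM in XY and 388, 377, 436 and 461 CPM in XX. XY replicate 5 was higher than the other XY libraries and each XX library was still more than 30 times as high (log2 fold change -6.10, SE 0.33, FDR 5.33e-21). Pcdh17, a protocadherin, was at 1.72 ± 1.14 v 93.1 ± 15.2 CPM and Tsbp1, a testis-expressed gene, at 3.62 ± 1.19 v 175 ± 11.5 CPM. By difference in CPM, Cdk11b, a kinase of transcription and splicing, was at 424, 356, 492 and 473 CPM in XY and 1897, 2309, 2242 and 2144 CPM in XX. The XX libraries were all above 1800 CPM (log2 fold change -2.303, SE 0.12, FDR 4.98e-18). Hsp90ab1, a cytosolic chaperone, was among the highest by difference towards XY, at 2059, 2367, 2707 and 2484 CPM in XY and 1380.4, 1202, 1176 and 1365 CPM in XX. The sexes did not overlap, but the fold change of 1.86 was close to the 1.5 tested against (log2 fold change 0.89, SE 0.13, FDR 0.0331), and it was not called by DESeq2 (FDR 0.106), without the filter on low counts (FDR 0.673), or without XX replicate 7 (0.86, FDR 0.0632), XX replicate 8 (0.82, FDR 0.148), XY replicate 5 (0.83, FDR 0.115) or XY replicate 6 (0.88, FDR 0.0534). Gm26787, Gm13269 and Gm31356 (lncRNAs), Gm22748 (a snoRNA) and Btf3-ps18 (a pseudogene of Btf3) were the other genes among the 10 with the largest fold change towards XX.

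Vwf, Cd2 and Ighm are genes of endothelial or blood cells, and endothelial markers stood higher in XY libraries too. Flt1 (VEGFR1) was at 22.4, 30.9, 27.3 and 28.5 CPM in XY and 2.58, 4.68, 1.94 and 2.68 CPM in XX. Every XY library was more than 4 times every XX library (log2 fold change 3.21, SE 0.36, FDR 1.08e-08). Cdh5 (VE-cadherin) had 74 counts in XY and 2 in XX, a ratio of 35.6 with a counting interval of 9.5 to 299. Of 6 endothelial markers, only Flt1 and Cdh5 passed the filter, both higher, and Kdr, Tie1, Tek and Emcn were not tested. Of 13 blood and immune markers, 8 were tested and 2 were higher (25%, near the 22.8% of all genes), Alas2 (7.42 ± 4.98 v 0.296 ± 0.348 CPM) and Fcer1g (6.10 ± 1.52 v 0.877 ± 0.825 CPM), while the 6 globin genes had no call. In a wider list, Egfl7, another endothelial gene, was higher too (51.5 ± 4.81 v 5.77 ± 1.90 CPM) and Eng had no call. Whether other cells had a part in the levels of Vwf, Cd2, Ighm and these markers was not tested. Of 5 pregranulosa markers, Foxl2, a transcription factor that defines ovarian granulosa cells, was lower in XY. It was at 0.448, 0.418, 0 and 1.99 CPM in XY and 6.71, 6.02, 7.76 and 17.1 CPM in XX. XX replicate 11 was highest, and all XX values exceeded the XY values (log2 fold change -3.69, SE 0.62, FDR 2.03e-05). Kitl, the ligand that somatic cells present to KIT on germ cells, was at 0.448, 1.67, 2.00 and 0.664 CPM in XY and 9.81, 14.1, 16.8 and 27.3 CPM in XX. It too was highest in XX replicate 11 (log2 fold change -3.72, SE 0.58, FDR 5.73e-06). Fst, Rspo1, Wnt4 and Bmp2 had 6.67 v 2.85, 16.7 v 10.5, 6.10 v 7.85 and 4.42 v 6.92 CPM on average and no call, and the summed share of the 5 pregranulosa markers was 0.00294 to 0.00403% in XY and 0.00238 to 0.00520% in XX. In wider lists of somatic genes, the gonadal transcription factors Wt1 (6.33 ± 2.45 v 23.4 ± 6.86 CPM) and Nr5a1 (2.01 ± 1.21 v 7.48 ± 1.84 CPM) were lower in XY, as were 3 of 8 genes of the Sertoli list (37.5% against 18.1% of all genes, median -1.185) and 4 of 9 of the pregranulosa list (44.4%, median -1.246), lists that share Wt1 and Gata4, with 0 higher in either, while the Sertoli cell gene Sox9 had 10.6 ± 4.08 v 6.19 ± 2.77 CPM and no call. The part of somatic cells in the Foxl2 and Kitl difference was not tested.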

How the data were processed

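Germ cells were sorted and sequenced in 40 libraries, 4 in each of 10 groups, prepared as 2 pools of 20. The authors primed poly(A) RNA with oligonucleotides that carry a sample index and a UMI, aligned reads to GRCm39 with Rsubread within scPipe, assigned them to GENCODE exons with strand taken into account, and deposited raw UMI counts per gene, after removal of UMI duplicates. The UMI is given as 10 bases in the study's methods and read as 8 in its code. Upstream versions are not given in the sources used here. The deposited counts cover 42422 genes, of which 40391 matched GENCODE M39 by identifier, and the unmatched genes held 1.05% of counts.

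CPM were computed here from those counts with TMM in edgeR 4.0.16. Genes were kept by filterByExpr (minimum count 10, total 15), which left 15252 genes with 99.22% of counts. All 40 libraries were fitted with limma 3.58.1 (voomWithQualityWeights, 1 mean per group, R 4.3.3), and the contrast of XY with XX at 72 h in DMSO was tested by treat against 1.5-fold with Benjamini-Hochberg adjustment at 0.05 over all genes tested. The same fit gave the interaction of sex with time. Shares of counts were compared by exact permutation over 70 regroupings (Python 3.11.15, scipy 1.17.1). All tests were two-sided. Fits were run on simulated counts in which a small set of genes was changed, far fewer than were called here. That run therefore does not test a contrast in which so many genes differ. Folds against a group without counts were computed against 3 counts in that group, and intervals and floors cover counting error only. The alternatives were DESeq2 1.42.0, edgeR glmTreat, other scalings and filters, fewer libraries, thinning, and each library left out.

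Members and gene lists were chosen with earlier results of these data known, and the lists of complexes II to IV and the restricted lists of complex I and ATP synthase were set after values had been seen. Named by size were the 10 genes with the largest fold change in each direction (groups not overlapping, mean of at least 10 CPM in the higher group), the 5 such genes on the X chromosome and the 5 with the largest difference in CPM, and otherwise members of the lists. A few members of the lists are not reported here by name.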

Additional observations from a re-analysis of the deposited data

Results flagged for a closer look

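In 104 groups of 4 libraries, chiefly those of the 47 genes given library by library, 7 held 1 library apart from the other 3 by Dixon's criterion, where chance gives about 1 in 20. The library apart was XY replicate 2 for Dnmt3a (495.9 CPM, lower than the rest), XY replicate 5 for Stra8 (59.25 CPM, lower) and for Inca1 (11.98 CPM, higher), XY replicate 4 for Sdc4 (774.9 CPM, lower) and for Pparg (0.836 CPM, where the others had no count), XX replicate 4 for Cd2 (0.5162 CPM, where the others had no count), and XX replicate 11 for Foxl2 (17.13 CPM, higher). In none of these 7 did the library apart overlap the other sex, which the choice of genes by size fixed for Cd2, Pparg and Inca1. For Cd2 and Pparg, where the other libraries had no count, any count meets the criterion, so the chance rate does not apply.

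By the interaction term, 3979 genes had a sex difference at 72 h that differed from that at 24 h. Among the genes named, the change towards XY was 2.91 for Dnmt3a, 7.79 for Dnmt3l, 8.49 for Spocd1, 8.18 for Piwil4, 3.31 for Ldha, 2.31 for Rec8 and 2.83 for Gata2 on the log2 scale. The change towards XX was -3.47 for Terb1, -3.59 for Ndufa1, -3.05 for Atp5pb, -3.23 for Lefty1, -3.54 for Lefty2 and -6.42 for Etv1.

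XX libraries of 24 h, which should hold no Y-linked transcripts, carried Y-linked counts equal to 4.20% of those in the libraries of pool 2 that bear an identical sample index. After subtracting the level of these genes in XX 0 h libraries the share was 3.251%, from 2.36 to 3.98% over the 4 libraries. The values of the interaction with that share taken out stand beside the main ones in the text above, and the 72 h comparison, whose scaling, filter and variance use these libraries too, went from 6250 to 6214 genes called.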

How the results depend on the processing

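The number of genes called between the sexes at 72 h ran from 5396 (only the 8 libraries fitted) to 9022 (limma eBayes with an observed fold over 1.5), from 2789 to 4958 higher and from 2432 to 4064 lower, and from 5942 to 6284 in all with 1 library left out. edgeR glmTreat called 7232 genes and the fit without a filter 7240. No gene called in both the main and an alternative fit changed direction. The interaction, with 3979 genes in the main fit, called from 3104 genes (thinned libraries) to 7215 (eBayes, 4018 positive and 3197 negative). DESeq2 called 3452 and edgeR glmTreat 4929. Removing the shared-index counts, chosen after seeing the data, left 6214 genes called at 72 h, of which 6200 were shared with the main result. Scaling by total counts alone moved the median log2 fold change of all genes from 0.0996 to 0.208. Over the genes that each fit kept, it was 0.0047 with only the 8 libraries fitted and -0.0362 without a filter, so its sign depended on the processing. Of 11904 comparisons of 632 named or listed genes, 11540 stayed on the same side of the threshold, 185 lost a call and 179 gained one. No called gene changed sign, and 148 comparisons did so in genes called in neither fit. The share of somatic and blood markers differed by 0.0127 to 0.0165 percentage points with 1 library left out, and its p rose to 0.0571 without XX replicate 4, 7 or 8 or XY replicate 5. The share of the 100 highest genes differed by -0.554 percentage points (exact permutation, p = 0.286), and by -0.927 to -0.285 with 1 library left out, where p was 0.0286 without XY replicate 5 and 0.314 to 0.571 without each other library. The mitochondrially encoded share differed by 0.139 percentage points, and by 0.0742 (without XY replicate 6) to 0.213 (without XY replicate 2) with 1 library left out (exact permutation, p from 0.0857 to 0.714). No paired analysis was possible because the 2 groups share only 1 replicate number. Depth limits genes of a few counts per library, such as Nodal and its targets, and transcripts counted at the 3′ end say nothing of isoforms.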
